A study of Mus musculus with 7 samples.

Results

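Epithelial cells of the intestine are held together and sealed by a small set of proteins, and the open chromatin at 10 of their genes was followed in sorted intestinal stem cells of mice after bone marrow transplantation. The genes were Epcam, Cdh1 and Cd44 (adhesion), Cldn3, Cldn4, Cldn7, Ocln and Tjp1 (tight junctions), and Ehf and Elf3 (transcription factors of epithelia). A peak of open chromatin was counted for a gene when its summit lay in the gene body, or when that gene was the nearest protein-coding gene within 50 kb. By this rule 144 of 103809 open regions belonged to the 10 genes. All 10 genes had peaks in all 7 libraries, and no region of theirs passed the test between recipient types.

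As background, E-cadherin, the product of Cdh1, joins neighbouring cells at adherens junctions and is tied to actin through catenins. Above it lies the tight junction, in which claudins form the strands that seal the space between cells, occludin is a further membrane protein and ZO-1, the product of Tjp1, is the scaffold on the inside of the membrane. EpCAM is a surface adhesion protein that binds and stabilises claudin-7 in the gut. CD44 is a receptor for hyaluronan that is found on crypt cells and on leukocytes. Ehf and Elf3 are ETS factors, proteins that bind DNA at a GGAA core, and are largely restricted to epithelia. In the gut, loss of the seal lets bacterial products cross the wall, a known feature of intestinal graft-versus-host disease.

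Chromatin accessibility was measured by Omni-ATAC-seq, in which the Tn5 transposase cuts and tags open DNA, 7 days after transplantation. All mice were females of 8 to 12 weeks of the strain B6-GFP-Lgr5, whose GFP reporter marks Lgr5+ stem cells, and all had been lethally irradiated, so that no group without irradiation was compared. Syn recipients (3 libraries) had a syngeneic transplant and Allo recipients (4 libraries) received a graft from BALB/c donors. For each library 50000 cells were sorted from a separate pool of 3 to 4 mice, so the spread between libraries is that between pools.

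The values are the places of peaks in the list of their own library. The 7 lists held 62977 to 88861 peaks, and the number of reads behind them is unknown. A peak's level is given as its rank percentile by −log10 q, with 100 for the best peak of a list, so a percentile says how a site stands against the other peaks of that library and not how many reads it had. Overlapping peaks of all libraries were merged into regions. Allo 3 and Allo 4, with the longest lists, carry peak names of another scheme than the other 5 libraries, and no source used here says if peak calling was the same for all, so the difference without these libraries is given beside results that rest on them. In sorted bulk cells, fewer cells with an open site and a less open site in each cell cannot be told apart. The label was checked on markers: 4 of 4 stem cell markers and 6 of 6 epithelial markers had a peak at a gene end in every library, whereas 0 of 4 matched T cell markers (Cd3e, Cd3d, Cd3g and Lck) did in any. Such peaks were also seen in every library for 2 of 3 pan-leukocyte markers (all but Ptprc), 1 of 4 myeloid markers (Itgam) and 1 of 5 markers of stroma and endothelium (Vim). Of the other cell types that the gate could hold, 4 of 4 enterocyte, 2 of 2 Paneth and 3 of 3 tuft markers had such a peak in every library. So did 2 of 3 goblet markers (all but Spdef), and 2 of 2 enteroendocrine markers except in Syn 1 (1 of 2). For scale, 59.7% of 17274 genes had a start inside a region held by all 7 libraries, so a peak at a gene start is common.

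For 8 of the 10 genes the RefSeq promoter table of GRCm38.p6, the same build as mm10, held 10 windows from 250 bases before to 50 bases after a start. The windows of Epcam, Cldn7 and Tjp1 are shown because the region at one of their starts ranked above all Syn libraries in each Allo library, and that of Elf3 because its start was the best ranked among genes with a window. Each is written 5′ to 3′ along the gene, with matches to the motifs listed next in capitals.
Epcam, chr17:87635729-87636028, plus strand: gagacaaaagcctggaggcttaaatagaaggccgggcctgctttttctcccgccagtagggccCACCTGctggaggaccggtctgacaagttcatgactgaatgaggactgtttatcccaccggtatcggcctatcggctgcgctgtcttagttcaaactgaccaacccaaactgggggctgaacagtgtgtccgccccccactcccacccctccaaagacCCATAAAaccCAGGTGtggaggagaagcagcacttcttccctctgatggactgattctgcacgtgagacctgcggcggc
Elf3, chr1:135258423-135258722, minus strand: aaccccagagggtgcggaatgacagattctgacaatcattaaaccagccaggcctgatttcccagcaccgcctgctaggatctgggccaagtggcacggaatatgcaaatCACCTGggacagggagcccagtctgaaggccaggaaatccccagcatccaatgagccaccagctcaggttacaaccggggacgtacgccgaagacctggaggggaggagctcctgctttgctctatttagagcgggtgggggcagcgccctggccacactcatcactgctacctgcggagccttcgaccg
Cldn7, first start, chr11:69964529-69964828, plus strand: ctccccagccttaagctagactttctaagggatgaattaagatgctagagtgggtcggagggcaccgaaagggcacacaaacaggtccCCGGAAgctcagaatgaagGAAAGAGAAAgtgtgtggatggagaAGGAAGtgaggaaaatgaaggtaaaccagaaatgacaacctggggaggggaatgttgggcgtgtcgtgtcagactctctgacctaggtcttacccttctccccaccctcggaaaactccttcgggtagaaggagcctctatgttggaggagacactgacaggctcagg
Cldn7, second start, chr11:69965171-69965470, plus strand: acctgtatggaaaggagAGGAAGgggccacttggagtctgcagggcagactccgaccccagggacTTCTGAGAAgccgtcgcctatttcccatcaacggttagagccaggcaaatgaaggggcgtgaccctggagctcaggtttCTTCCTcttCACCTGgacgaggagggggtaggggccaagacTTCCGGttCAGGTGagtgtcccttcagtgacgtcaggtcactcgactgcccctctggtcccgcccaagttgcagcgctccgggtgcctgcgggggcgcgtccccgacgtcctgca
Tjp1, chr7:65371195-65371494, minus strand: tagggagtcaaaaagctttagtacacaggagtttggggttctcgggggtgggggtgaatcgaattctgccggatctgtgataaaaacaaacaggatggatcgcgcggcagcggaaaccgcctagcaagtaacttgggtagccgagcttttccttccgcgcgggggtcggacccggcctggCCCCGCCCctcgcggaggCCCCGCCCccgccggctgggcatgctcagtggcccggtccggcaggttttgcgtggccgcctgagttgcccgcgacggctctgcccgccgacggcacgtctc

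A total of 12 motifs were searched on both strands, and a match is a run of letters and not a bound site. The E-box CACCTG, known as a target of the repressors Snai1, Zeb1 and Zeb2, was in 7 of the 10 windows and in 20.2% of all 32851 windows of the table. It was found in Epcam, Elf3, Cldn3, Cldn4, the second start of Cldn7 and both starts of Ocln, whose windows overlap and share a match. In Epcam it lay at positions -187 and -19 from the start, and at the second start of Cldn7 at -97 and -57. The ETS core CCGGAA (14.9% of all windows) was at both Cldn7 starts and at 1 start of Ocln, and AGGAAG (35.4%) was at both Cldn7 starts and in Cd44.

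Among the other motifs, TTTATNG, the kind bound by Cdx2, lay in Epcam alone of the members (10.9% of all windows). The STAT spacing TTCNNNGAA (8.30%) lay at the second start of Cldn7, and the interferon response element, read as GAAA, 2 free bases and GAAA (3.44%), at position -143 of its first start. CCCCGCCC, a site of SP and KLF factors (17.6%), was found in Tjp1, Cldn3 and Ocln, and TGANTCA, the AP-1 site (7.81%), in Cldn4. No member window held AACNNGTT (4.20%), CTTTGA (5257 of the 32851), CAAAGTCCA (0.475%) or TATAAA (13.6%), the letters of Grhl, TCF, HNF4 and TATA box sites.

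Open chromatin at the 10 genes was shared by the recipient types to a degree close to that of the whole series. Of the 144 regions, 81 were held by all 7 libraries (56.2%, against 48.5% of all regions) and 24 by 1 library (16.7%, against 16.6%). A group held a region alone in 4 cases for Allo (2.78%, against 1.14%) and in 0 cases for Syn (against 1.01%). In total the Syn libraries held 107, 104 and 111 peaks of these genes and the Allo libraries 105, 107, 128 and 115. Per 10000 peaks of a list this was 14.5 ± 0.380 in Syn (SD, n = 3) and 14.8 ± 1.26 in Allo (SD, n = 4). Allo 3 had the most peaks and Allo 1, with the shortest list, the most per 10000. Allo 3 alone held 9 of the 24 regions seen once.

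Regions seen in all libraries were wide and well ranked, with a median width of 866 bp (889 bp over all 50324 shared regions) and a median mean percentile of 68.2 (64.7). The remaining member regions had a median width of 312 bp. Those in 2 to 6 libraries had a median percentile of 20.04, and those in 1 library one of 13.8. Such contrasts follow in part from how the classes are made. A site near the threshold of one list is easily missing from another, and merged regions can only widen with more libraries. Values over all regions are not given for these classes. Regions at a start of the promoter table had a median of 83.9 (n = 9), other shared ones in gene bodies 60.1 (n = 37) and other shared ones outside gene bodies 68.1 (n = 36). The start class held a Cldn7 region with peaks in 2 libraries (8.70). Cdh1 and Ehf had no window, so their gene-end regions (means of 94.0 and 61.3) were counted outside bodies and in bodies. The genes had a median of 14.5 regions each, against 3 over all genes with a region.

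**Figure D1:**
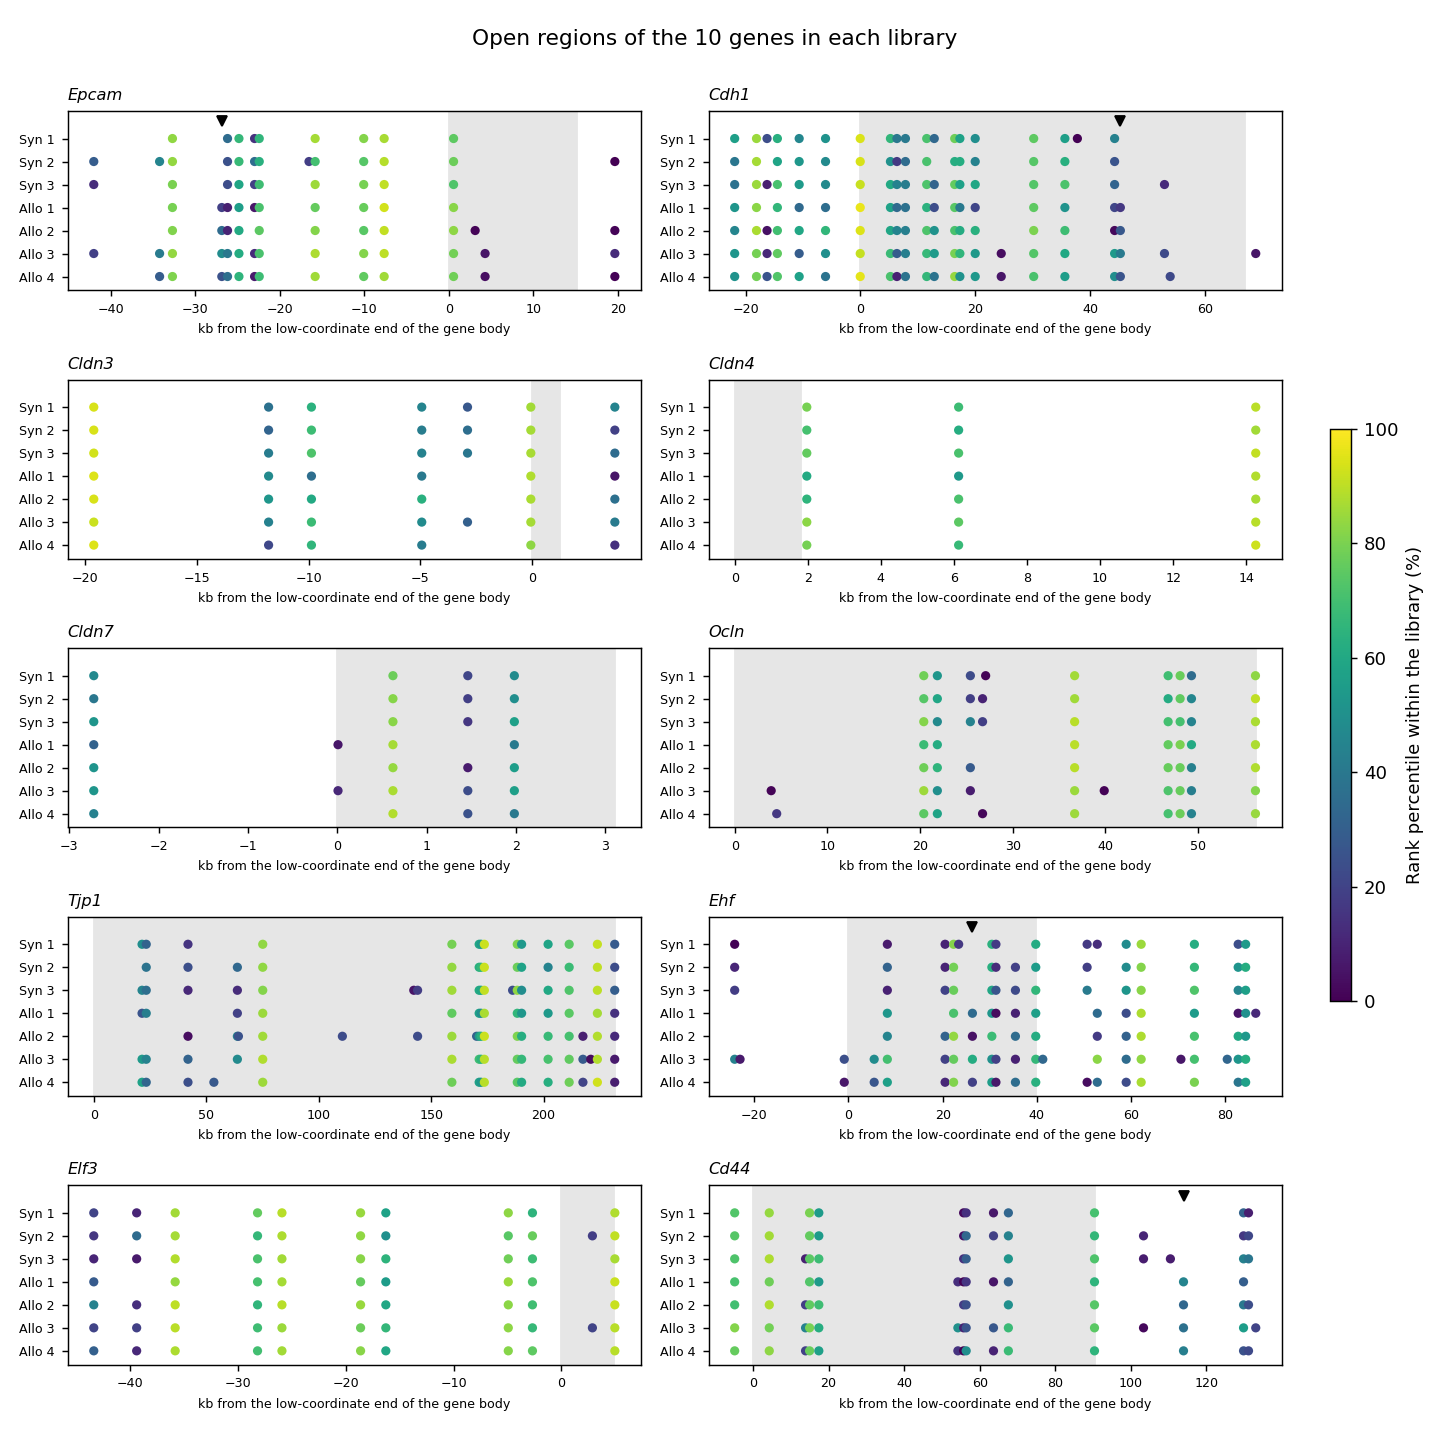
Each panel is a gene, with the distance of each peak region from the low-coordinate end of the gene body in kb on the x axis and the 7 libraries on the y axis; the colour is the rank percentile and black triangles mark the 4 Allo-only regions. Most columns of well-ranked points run through all 7 libraries, and the gaps sit among the low ranks.

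The 81 shared regions were tested within a limma fit over all 50324 shared regions, with Benjamini-Hochberg adjustment over all of them. None of the 81 was called higher in Allo (background 0.36%) and none lower (background 0.101%). Over all regions 181 were called higher and 51 lower, a split that became 667 and 792 when ranks were taken among shared regions alone. At an unadjusted limma p under 0.05, 2 member regions were higher (2.47%, background 8.53%) and 1 was lower (1.23%, background 6.88%). The groups did not overlap in 6 member regions with higher Allo values (7.41%, background 8.06%) and in 2 with lower ones (2.47%, background 6.58%). The difference of mean percentile, Allo minus Syn, had a median of 0.0209 points over the 81 regions and 0.44 over all, and it was above 0 in 41 of 81 (50.6%, against 54.1% of all).

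**Figure D2:**
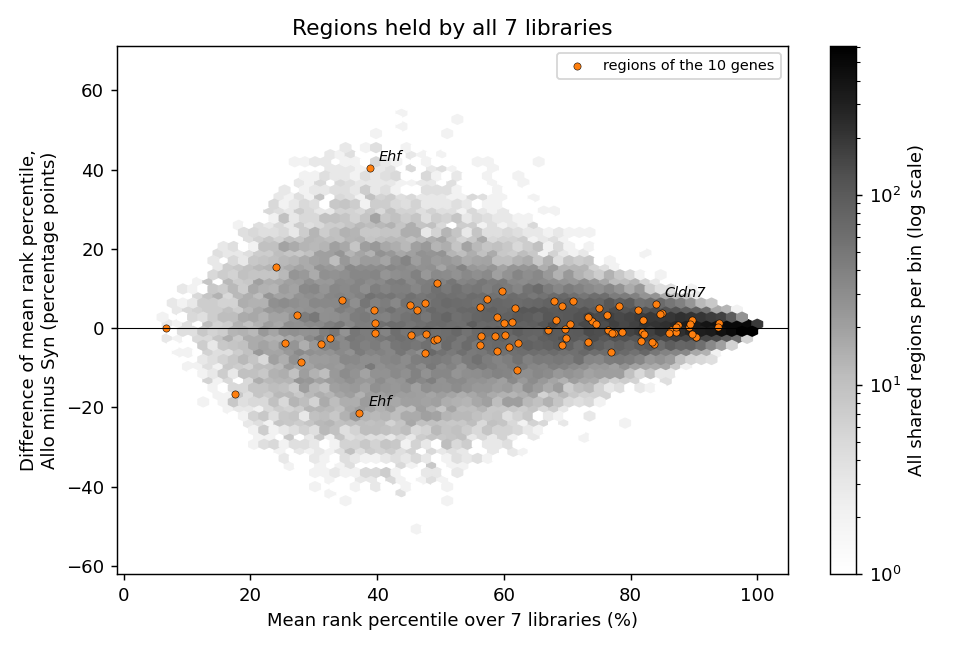
The x axis is the mean rank percentile over the 7 libraries and the y axis the difference Allo minus Syn in percentage points; the shading counts all 50324 shared regions on a log scale, and the points are the 81 member regions. Well-ranked member regions lie near 0, and the widest differences, from -21.4 to 40.3, are at middle and low ranks.

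All 8 genes with a promoter window had a start inside a region held by all 7 libraries, against 59.7% of 17274 genes of the promoter table.

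Among the adhesion genes, Cdh1 had 24 regions, of which 16 were held by all libraries, and its best was the region over the low-coordinate end of the gene, chr8:106602908-106604503. It ranked at 94.1, 94.1 and 91.5 in Syn and at 96.7, 94.8, 91.2 and 95.8 in Allo. The groups overlapped (difference 1.39 points, SE 1.31, limma adjusted p = 0.664). A mean of 94.0 ± 2.07 (SD, n = 7) put Cdh1 first among the members and above 73.5% of the 15124 genes with a peak in all libraries. The number of Cdh1 peaks was 20, 17 and 20 in Syn and 21, 19, 24 and 23 in Allo.

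Epcam, the marker by which epithelial cells are often sorted, had 16 regions, 13 of them outside its body. Its best region was not at the start but 7.65 kb upstream, at chr17:87627695-87628939. There Syn ranked at 87.0, 88.8 and 90.4 and Allo at 92.99, 90.7, 89.9 and 85.8, with overlap. The region over the start, chr17:87635610-87637341, had its summit 557 bp inside the gene and ranked at 75.2, 77.6 and 72.3 in Syn and 82.3, 83.2, 78.8 and 78.2 in Allo. All 4 Allo values were above all 3 Syn values, with means of 75.1 ± 2.61 (SD, n = 3) and 80.6 ± 2.48 (SD, n = 4). The difference of 5.57 points did not pass (SE 3.06, limma adjusted p = 0.410), and it was 1.87 when peaks were ranked by fold. Leaving out Allo 3 and 4 gave 7.69, and leaving out Allo 1 and 2 gave 3.46. Epcam had 9, 13 and 10 peaks in Syn and 10, 11, 14 and 13 in Allo.

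Cd44 had 17 regions, and its best region, chr2:102814876-102816427, lay 86.2 kb into the gene. Its percentiles were 84.2, 86.3 and 87.6 in Syn and 78.1, 88.2, 78.7 and 82.9 in Allo. The start region, chr2:102900455-102902117, ranked at 70.7, 66.3 and 72.0 in Syn and at 64.9, 73.5, 74.6 and 65.1 in Allo. Both regions overlapped between the groups, and the difference at the start was -0.126 points (SE 4.70, limma adjusted p = 0.994). Numbers of peaks were 12, 12 and 14 in Syn against 14, 15, 15 and 14 in Allo.

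A region 23.4 kb upstream of Cd44, chr2:102925002-102925286, was held by the Allo libraries alone, at percentiles of 45.0, 32.9, 37.0 and 42.7. No Syn library had a peak there, and the nearest other region lay 3282 bp away. Since leukocytes carry CD44, the leukocyte lists are given beside it. The T cell list, with 0 of 4 matched markers open at a gene end in any library, had 0.392 to 0.417 peaks per 10000 in Syn and 0.450 to 0.526 in Allo. These T cell rates rest on very few peaks per library. They shift with any added peak and with list length, which was shortest in Allo 1. The pan-leukocyte list, with 2 of 3 markers open at a gene end in every library and Ptprc in none, had 1.63 to 1.70 in Syn and 1.58 to 2.03 in Allo. The myeloid list, with 1 of 4 and with Lyz2, Adgre1 and Csf1r at none, had 1.31 to 1.53 in Syn and 1.27 to 1.71 in Allo. The part of such cells in this region was not tested.

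Regions with peaks in the Allo libraries alone were also found at Cdh1, Epcam and Ehf. In the body of Cdh1, chr8:106648042-106648734 ranked at 16.04, 27.3, 40.7 and 26.01, and lay 309 bp from a region that all libraries held. Upstream of Epcam by 26.9 kb, chr17:87608949-87609363 ranked at 19.1, 34.4, 48.2 and 25.2, and lay 247 bp from a shared region. In the body of Ehf, chr2:103289510-103289906 ranked at 34.7, 4.6, 61.6 and 19.2. This Ehf region was no longer Allo-only at a −log10 q of at least 5 or in lists cut to the shortest length. The Cdh1 region was no longer so when 50% of a region had to be covered. All values of the 4 Allo-only regions were under 50 except that of Ehf in Allo 3, and Allo 3 had the highest value at each but Cd44. Held by all Allo and under 3 Syn libraries were 7 member regions (4.86%, against 4.03% of all), and held by all Syn and under 4 Allo were 12 (8.33%, against 10.4%). Allo 1, which had the shortest list, lacked 9 of these 12.

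The claudins are neighbours in the genome in the case of Cldn3 and Cldn4 on chromosome 5, and the best region of each lay between the pair. For Cldn3 it was chr5:134965935-134967997, 19.6 kb upstream of the start, at 94.0, 94.0 and 93.2 in Syn and 94.8, 94.0, 92.0 and 94.8 in Allo. Its spread over the 7 libraries, 93.8 ± 0.966 (SD, n = 7), was the smallest of the members' best peaks. For Cldn4 it was chr5:134958992-134959812, 12.5 kb upstream, at 89.8, 86.1 and 90.9 in Syn and 88.6, 87.1, 89.1 and 92.5 in Allo. Neither separated the groups.

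Start regions of the pair differed in how steady they were. At Cldn3, chr5:134985575-134987242 ranked at 86.2, 86.5 and 86.9 in Syn and at 88.1, 87.1, 86.5 and 82.9 in Allo (difference -0.393, SE 1.82, limma adjusted p = 0.949). At Cldn4, chr5:134945529-134947348 ranked at 79.4, 70.7 and 76.0 in Syn and at 60.7, 65.2, 82.5 and 79.0 in Allo. Allo 1 and Allo 2 lay below the Syn range, Allo 4 within it and Allo 3 above it, so the Allo values split by the naming scheme of the lists (difference -3.51, SE 5.41, limma adjusted p = 0.813). With ranks by fold it was -11.8. Leaving out Allo 3 and 4 gave -12.4, and leaving out Allo 1 and 2 gave 5.40.

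Cldn7 was the only member whose best peak had an unadjusted limma p under 0.05 (10.6% of all genes did). It has a pair of annotated starts, and its best region, chr11:69965074-69965696, had its summit 19 bp before the second. Syn ranked there at 77.7, 81.7 and 82.1 and Allo at 86.5, 84.0, 87.3 and 88.3. The groups did not overlap, with means of 80.5 ± 2.43 (SD, n = 3) and 86.5 ± 1.82 (SD, n = 4). The difference of 6.06 points (SE 2.17) did not pass in limma over all regions (adjusted p = 0.210), nor over all genes (SE 2.43, adjusted p = 0.417). It was 4.79 without Allo 3 and 4, and 3.11 when peaks were ranked by fold. At the first start, chr11:69964645-69964939 had a peak in Allo 1 (percentile 6.1) and Allo 3 (11.3) and in no other library.

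Occludin is encoded by Ocln, which had 13 regions, all in its body. The region over its starts, chr13:100551269-100553362, ranked at 82.9, 90.4 and 87.1 in Syn and at 87.6, 88.1, 81.6 and 84.5 in Allo. Its region with the highest mean was another, chr13:100532403-100533552, 19.5 kb into the gene. There Syn ranked at 86.3, 85.8 and 89.2 and Allo at 89.7, 89.2, 84.9 and 85.4. Both overlapped between the groups, and the start differed by -1.36 points (SE 2.27, limma adjusted p = 0.831). A weaker region, chr13:100542981-100543713, ranked at 69.3, 61.3 and 70.0 in Syn and at 75.9, 76.7, 72.1 and 70.5 in Allo, without overlap (difference 6.94, SE 4.40, limma adjusted p = 0.483). It was 4.17 without Syn 2 and 4.47 without Allo 1 and 2.

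The number of Ocln peaks was also compared relative to list length. All Syn libraries had 9 peaks, and the Allo libraries had 7, 8, 10 and 9. Per 10000 peaks of a list this was 1.22 ± 0.0372 in Syn (SD, n = 3) and 1.10 ± 0.0322 in Allo (SD, n = 4). The two-sided exact permutation p was 0.0286, the smallest that 35 relabellings allow, and 0.605 after adjustment over 17305 genes. With lists cut to the shortest length the exact permutation p was 0.114, and at a −log10 q of at least 5 it was 0.0571, where Cldn3 had 0.0286. The next members were Elf3, with a difference of -0.119 (exact permutation p = 0.0857, adjusted p = 0.627), and Cldn3, with -0.177 (exact permutation p = 0.114, adjusted p = 0.688). No gene of the 17305 passed (background 0%, and 4.46% at an unadjusted exact p under 0.05).

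Tjp1 spans the longest body of the set, with 24 regions inside it and none outside. Its region with the highest mean was chr7:65469497-65470569, 98.6 kb upstream of the annotated start though inside the gene body, at 92.2, 91.9 and 90.8 in Syn and 87.2, 92.0, 89.2 and 89.3 in Allo. The start region, chr7:65370303-65371730, ranked at 83.5, 83.4 and 81.3 in Syn and at 85.1, 85.9, 88.3 and 85.4 in Allo. The best region overlapped between the groups and the start region did not (difference 3.46, SE 1.94, limma adjusted p = 0.422). A region over the high-coordinate end of the body, which is the 5′ end of this minus-strand gene and may hold another start, was chr7:65526922-65527990. It ranked at 28.4, 23.1 and 29.6 in Syn and 14.3, 11.9, 7.0 and 8.3 in Allo. All Allo values were below all Syn values, and the difference of -16.6 points did not pass (SE 7.76, limma adjusted p = 0.326). It was -5.92 with ranks among shared regions, and it had no value in cut lists or at a −log10 q of at least 5, where not all libraries held the region. Tjp1 had 14, 14 and 18 peaks in Syn and 15, 18, 17 and 16 in Allo.

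**Figure D3:**
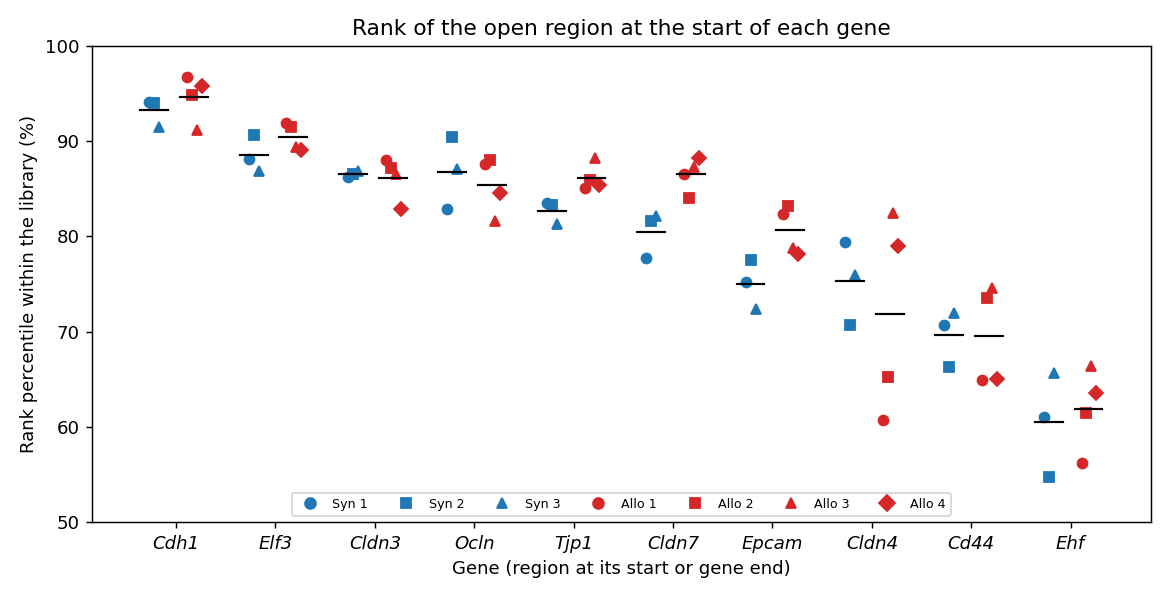
The y axis is the rank percentile of the region at the start of each gene (the low-coordinate end for Cdh1 and the high-coordinate end for Ehf), drawn from 50 to 100, with a point per library. Cdh1 and Elf3 are at the top and Ehf at the bottom, and the Allo points of Epcam, Cldn7 and Tjp1 lie above their Syn points.

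Of the ETS factors, Elf3 ranked next to Cdh1 and Ehf lowest in the plot of start regions. Elf3 had 11 regions, 9 of them in all libraries, and its start region, chr1:135258183-135259352, ranked at 88.1, 90.6 and 86.9 in Syn and at 91.9, 91.5, 89.4 and 89.1 in Allo. Its summits lay within 15 bp of each other over the 7 libraries. At Ehf, the region over the high-coordinate gene end, chr2:103302570-103304170, ranked at 61.1, 54.8 and 65.6 in Syn and at 56.2, 61.5, 66.4 and 63.5 in Allo. Both overlapped between the groups, with differences of 1.94 (SE 1.46, limma adjusted p = 0.566) and 1.42 points (SE 5.72, limma adjusted p = 0.939). The best Ehf region lay outside the gene, 22.3 kb beyond that end at chr2:103324642-103326199, at 84.9, 81.6 and 82.1 in Syn and 87.7, 87.8, 83.6 and 87.5 in Allo. All libraries had 10 Elf3 peaks except Allo 1, which had 8.

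The widest difference of any member region was inside Ehf. The region chr2:103271437-103271970, 8.26 kb from the low-coordinate end, ranked at 6.9, 31.4 and 9.1 in Syn and at 52.4, 45.2, 70.3 and 56.4 in Allo. Every Allo value exceeded every Syn value, with means of 15.8 ± 13.6 (SD, n = 3) and 56.1 ± 10.6 (SD, n = 4). The difference of 40.3 points (SE 8.80) stayed short of the threshold in limma over all regions (adjusted p = 0.0641). It passed with ranks among shared regions (adjusted p = 0.0309), with Allo 2 left out (adjusted p = 0.0468) and with both Allo 1 and Allo 2 left out (adjusted p = 0.0107). It did not pass under the other alternatives that gave a value, with limma adjusted p = 0.269, 0.109 and 0.234 on leaving out Syn 1, Syn 2 or Syn 3, and 0.131 on leaving out Allo 3. With ranks by fold the difference was 33.2 (limma adjusted p = 0.125), and without Allo 3 and 4 it was 33.0 (limma adjusted p = 0.168).

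Another Ehf region went the opposite way. At chr2:103322088-103322594, 19017 bp beyond the high-coordinate end, Syn ranked at 47.8, 48.2 and 52.2 and Allo at 23.1, 31.1, 35.1 and 22.8. The Allo values were all below the Syn values, with means of 49.4 ± 2.45 (SD, n = 3) and 28.0 ± 6.10 (SD, n = 4). The difference of -21.4 points had an adjusted p of 0.192 in limma (SE 7.32). It was -22.3 without Allo 3 and 4 and -12.0 with ranks by fold. In lists cut to the shortest length it had no value, as not all libraries held the region. The best peak there was narrower in Allo too, 216, 233, 273 and 236 bp wide against 415, 488 and 436 bp in Syn.

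Several Ehf sites had peaks in some of the libraries alone. The region chr2:103315895-103316448 had a peak in Syn 1 (percentile 13.0) and in all Allo libraries (34.4, 17.4, 82.8 and 35.1). The region chr2:103268532-103269217 had one in Allo 3 (48.2) and Allo 4 (26.6) alone. In contrast chr2:103313943-103314381 had one in each Syn library (17.1, 18.6 and 41.3) and, among Allo, in Allo 4 alone (3.13). These sites were chosen after their values were seen. Ehf had 17, 15 and 15 peaks in Syn and 15, 13, 22 and 17 in Allo, with the most in Allo 3, and 6 of its 24 regions were held by 1 library.

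The last separating region was assigned to Elf3 at a distance of 42880 bp from its body, chr1:135210064-135210755, where part of the summits are nearer to Gpr37l1. Syn ranked there at 19.99, 15.7 and 10.2 and Allo at 28.3, 44.2, 20.2 and 30.2. The lowest Allo value was just above the highest Syn value (difference 15.4, SE 8.38, limma adjusted p = 0.404). It was 6.79 with ranks by fold, 8.81 with ranks among shared regions and 9.90 without Allo 1 and 2. In lists cut to the shortest length it had no value, as not all libraries held the region. The ranked peaks did not all sit at the same place. Their summits lay 506, 159 and 630 bp from the region's low end in Syn and 162, 145, 177 and 157 bp in Allo.

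**Figure D4:**
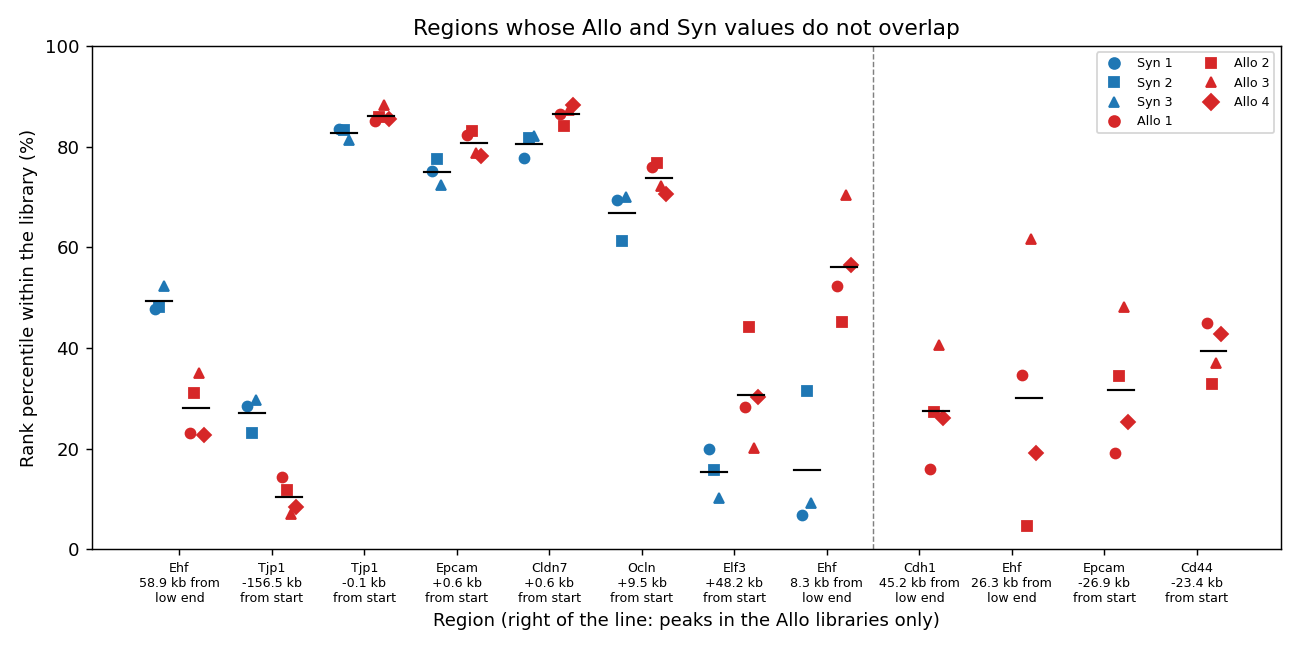
The y axis is the rank percentile, with a point per library, for the 8 shared member regions whose groups do not overlap and, right of the dashed line, the 4 regions with peaks in the Allo libraries alone. The Ehf region with means of 15.8 and 56.1 shows the widest gap.

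The best peak of each gene in each library was ranked over genes. After Cdh1 (94.0 ± 2.07) and Cldn3 (93.8 ± 0.966) came Tjp1 (90.9 ± 2.01), Elf3 (90.1 ± 1.26), Epcam (89.4 ± 2.41), Cldn4 (89.2 ± 2.19) and Ocln (88.0 ± 2.15), and then Ehf (85.0 ± 2.70), Cd44 (84.1 ± 3.65) and Cldn7 (83.9 ± 3.76), as mean percentiles ± SD over 7 libraries. Neighbours in this order differed by less than their SDs except Cldn3 and Tjp1, and Ocln and Ehf. The median over 15124 genes was 87.8. None of the 10 best peaks was called between recipient types by limma with adjustment over all genes (background 0.00661% higher and 0% lower).

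The position of the open sites was about as steady as over all shared regions, though the small differences were not tested. The summits of a shared member region lay within a median of 80 bp over the 7 libraries (71 bp over all shared regions). The mean summit shift between groups had a median size of 18.4 bp (14.9 bp over all). The largest was 271 bp, at the Elf3-assigned chr1:135210064-135210755, where summit positions of the groups overlapped. Groups did not overlap in summit position in 2 of the 81 (2.47%, background 5.87%). At chr13:100532403-100533552 in Ocln the summit stood 772, 671 and 775 bp from the region's low end in Syn and 777, 776, 780 and 795 bp in Allo, a mean shift of 42.7 bp that rests largely on Syn 2. At chr5:134989751-134990128, near Cldn3, the mean shift was -10 bp. The best peak was wider in Allo without overlap in 3 regions (3.7%, background 3.18%) and narrower in 8 (9.88%, background 8.23%). In Cd44, chr2:102867387-102868018 was 534, 597 and 547 bp wide in Syn and 275, 255, 266 and 305 bp in Allo.

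Other genes of the same systems, a list of 55 for junctions, desmosomes, polarity and epithelial regulators, had 512 regions, of which 285 were shared. In limma 1 of these was called higher in Allo (0.351%, background 0.36%) and 0 lower (background 0.101%), and the median difference was 1.25 points. The called region lay at Patj, which encodes a scaffold of the Crumbs polarity complex, at chr4:98436735-98437334. Syn ranked there at 13.9, 11.7 and 1.00 and Allo at 46.3, 56.8, 50.04 and 44.2. Its difference of 40.4 points (SE 7.71, limma adjusted p = 0.0414) passed when Allo 1 or Allo 2 was left out. The call was lost on leaving out any one of Syn 1, Syn 2, Syn 3, Allo 3 and Allo 4 (adjusted p = 0.164, 0.142, 0.186, 0.0842 and 0.101) or both Allo 3 and Allo 4 (adjusted p = 0.0990). It was lost as well on a logit scale and with ranks by fold (limma adjusted p = 0.0751 and 0.0949). With ranks among shared regions the difference was 25.6. The Patj region had no value in cut lists or at a −log10 q of at least 5, where not all libraries held it.

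A region at Ovol2, which encodes a repressor of mesenchymal genes, ranked at 69.5, 70.7 and 73.8 in Syn and 80.6, 83.8, 85.3 and 86.2 in Allo (difference 12.6, SE 2.98, limma adjusted p = 0.0791). The groups did not overlap, and the region did not pass. The same held for a region of Afdn, the gene of the actin linker afadin, at 21.95 to 35.5 in Syn and 46.03 to 81.3 in Allo (difference 34.6, SE 8.48, limma adjusted p = 0.0875). A region of Grhl2, which encodes an activator of Cdh1 and claudin genes, ranged from 41.7 to 62.8 in Syn and from 66.9 to 85.2 in Allo (difference 22.2, SE 6.33, limma adjusted p = 0.126).

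Presence in the wider list was Allo-only for 1 region (0.195%, against 1.14% of all), at Cldn23, and Syn-only for 5 (0.977%, against 1.01%), with 2 at Cldn8 and 1 each at Cxadr, Llgl2 and Pard3. The Syn-only region of Llgl2, a polarity protein, ranked at 21.95, 28.1 and 37.5, and the Cldn8 regions all ranked under 6. Among the 53 genes with a peak in every library, 0 best peaks were called by limma (1 was higher and 5 were lower at an unadjusted p under 0.05, which 10.6% of all genes reached).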

How the data were processed

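Omni-ATAC-seq peak lists of 3 Syn and 4 Allo libraries were used, grouped by their titles. Per the submitters' processing notes, the build was mm10 and the tools were Bowtie2, MACS2, MACS3 and Trim Galore, with no version or role for any. The sources used here give no threshold or read shift. Depth is unknown. The authors deposited 1 list per library, called per library: a score, a fold over background, and −log10 of the p-value and q-value per peak. The lowest deposited −log10 q was 1.30. These are the authors' values and served only to rank peaks within a list.

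Only chromosomes 1 to 19 and X were used (86 other peaks left out), and peaks were merged over libraries at 1 bp of overlap. Genes came from a RefSeq table of GRCm38.p6, which matched 10 of 10 members and 55 of 55 other listed genes. All 7 libraries entered each fit of the main comparison. A region took the best percentile of its peaks. Percentiles were compared with limma 3.58.1 (R 4.3.3; empirical Bayes, trend) and peaks per 10000 by two-sided exact permutation, with Benjamini-Hochberg adjustment over all features at 0.05. Tests were checked on simulated data. The shifts simulated for limma were larger than the differences at the start regions, so that check says nothing on changes of such size. The smallest exact p is 0.0286. No lists were copies. The members and lists were chosen with earlier results of these data known, including the Allo-only regions. Not every result on the other listed genes is reported here. All members were named, with start, best, called and group-specific regions. Regions whose groups did not overlap, sites with marked width or summit changes, and partly held sites were chosen after their values were seen. Alternatives were logit or fold ranks, ranks among shared regions, no trend, cutting lists to 62977 peaks, a −log10 q of at least 5, 501 bp windows, 50% coverage, gene body or 10 kb assignment, a replicate block and leaving out libraries singly or by naming scheme. Python 3.11.15, numpy 2.4.6, pandas 2.3.3, scipy 1.17.1 and matplotlib 3.10.9 were used.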

Additional observations from a re-analysis of the deposited data

Results flagged for a closer look

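In 3 of 41 sets of 4 Allo values, 1 library stood apart from the others by Dixon's test at 95%. For continuous values chance does this in about 1 of 20 sets. That rate does not hold for counts of peaks, where any library that differs from tied others is flagged, as for Cldn3 and Elf3 here. The number of Cldn3 peaks was 7 in Allo 3 and 6 in the other Allo libraries. Elf3 had 8 peaks in Allo 1, which had the shortest list, and 10 in the other Allo libraries. The best peak of Ehf ranked at 83.6 in Allo 3 and between 87.5 and 87.8 in the others, while Allo 3 had the most Ehf peaks.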

How the results depend on the processing

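No lower call was made in a member region, and no member gene was called by best peak or by number of peaks, under any alternative run. Against 0 member regions called higher, 1 was called with ranks among shared regions, 0 to 1 when a library was left out and 2 without Allo 1 and 2. Over all regions, 181 higher and 51 lower calls became 18 and 9 by fold, 667 and 792 among shared regions, 111 and 21 at a −log10 q of at least 5, and 408 and 354 in lists cut to the shortest. Higher calls were 97 without the trend. Leaving out 1 library gave 2 to 473 higher and 0 to 327 lower calls, leaving out Allo 3 and 4 gave 0 and 0, and leaving out Allo 1 and 2 gave 4882 and 1946. The 4 Allo-only member regions became 2 with gene bodies alone, 2 with the nearest gene within 10 kb, 10 without Allo 1 and 2, and 4 to 5 with a library left out. They became 3 at a −log10 q of at least 5, 3 in cut lists and 3 at 50% coverage. Syn-only regions, 0 in the main comparison, were 1 at a −log10 q of at least 5, 1 in cut lists, 0 to 2 with a library left out and 3 without Allo 3 and 4. The causes were not tested.

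Start regions with small differences changed sign. Cd44 reached 0.000899 on the logit scale, 0.189 without Allo 1 and 2 and -1.82 to 1.41 with a library left out. Ehf reached -5.68 by fold, -1.65 without Allo 3 and 4 and -1.44 to 3.99 with a library left out. Cldn3 reached 1.07 and Ocln 1.03 without Allo 3 and 4, and with a library left out they spanned -1.03 to 0.703 and -3.31 to 0.434. Cldn4 reached 5.40 without Allo 1 and 2, -12.4 without Allo 3 and 4 and -11.8 by fold, and spanned -7.05 to 0.215. The Ehf region chr2:103271437-103271970 gave no value at a −log10 q of at least 5 or in cut lists, where not all libraries held it.

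Deviations of Syn and Allo libraries of the same number correlated weakly (0.0755, -0.0333 and 0.0742). Pairs of unlike number ranged from -0.0926 to 0.0376, and 2 of 3 Syn libraries correlated best with their own number. So few weak values cannot decide if libraries of the same number share a batch. The replicate block gave 106 higher calls over all regions and 0 in members. No Syn library has the number of Allo 4, so under the block Allo 4 adds nothing to the group difference. The differences were therefore those found without Allo 4, 1.36 at the Cd44 start and 0.703 at the Cldn3 start. The call at Patj was lost under the block (limma adjusted p = 0.0675), as it was on leaving out Allo 4. With depth unknown, a missing peak says only that a site fell under the threshold of its list.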
